A study of Homo sapiens with 6 samples.

Results

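Keratin transcripts were followed in 21NT cells, a human breast cell line that models ductal carcinoma in situ, after overexpression of either isoform of the T-box transcription factor TBX3. The keratins were taken as the genes whose symbol is KRT followed by a number and, in some, a letter from A to C, which gave 35 of the 20824 genes in the deposited table. Pseudogenes, antisense genes and keratin-associated proteins were left out by this rule. Of the 35 keratins, 17 had a mean of at least 0.5 RPKM (reads scaled to transcript length and library size) over all libraries and were tested, and 18 lay below that level.

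RNA-Seq was done on 3 stable lines, 21NT + EV, 21NT + TBX3iso1 and 21NT + TBX3iso2, with 2 libraries per line and 6 in all. EV carried the empty pcDNA3.1 plasmid and the other lines the same plasmid with TBX3iso1 or TBX3iso2. All 3 lines were kept under G418 in a serum-containing medium with insulin, EGF and hydrocortisone, and RNA was taken before confluence. Each line was a pool of resistant clones, and since nothing states that its libraries came from separate cultures, the p-values measure only the spread between these libraries, which may be technical.

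Keratins form the intermediate filaments of epithelial cells and are built as pairs of an acidic type I chain and a basic type II chain. Luminal cells of the breast mainly use the simple keratins *KRT7*, *KRT8*, *KRT18* and *KRT19*, whereas basal and myoepithelial cells use *KRT5* and *KRT14*. The suprabasal keratins belong to the differentiating layers of stratified epithelia, the activation keratins *KRT6A*, *KRT6B*, *KRT6C*, *KRT16* and *KRT17* are induced in wounded skin, and the hair keratins build the hair shaft. The question asked of these data was how the classes differed between each isoform line and EV, and whether the isoform lines differed from each other. Since construct and pool of clones coincide, a difference due to the construct cannot be told apart from a difference between pools.

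The libraries held between 43176600 and 54512400 alignments. TBX3 itself was at 8.52 and 8.24 RPKM in EV, 13.1 and 11.4 RPKM with TBX3iso1, and 17.5 and 15.5 RPKM with TBX3iso2, so every isoform library lay above both EV libraries. By the criteria given below it was called higher with TBX3iso2 (1.96-fold) but not with TBX3iso1 (1.45-fold, under the fold threshold). This RPKM is for the whole gene and does not separate the isoforms. In the paper, RT-qPCR with primers for each isoform showed its rise, and western blots that of total TBX3 protein. *EPCAM*, an epithelial adhesion molecule, was at 181 and 188 RPKM in EV, 165 and 178 RPKM with TBX3iso1, and 210 and 232 RPKM with TBX3iso2. The 6 epithelial markers examined summed to between 657 and 659 RPKM in EV, 396 and 403 RPKM with TBX3iso1, and 468 and 472 RPKM with TBX3iso2. By the same criteria 4 of the 6 were called lower with TBX3iso1 and 2 with TBX3iso2, where 14.1% and 12.3% of all genes tested were. Among leukocyte markers *PTPRC* and *CD3E* did not exceed 0.0102 and 0.0299 RPKM, while *CD68* was at 44.1 and 43.2 RPKM in EV and 34.0 to 34.3 RPKM with the isoforms, and *CD14* at 10.7 and 9.44 RPKM in EV and 2.22 to 2.60 RPKM with the isoforms. Among endothelial markers *CDH5*, *VWF* and *KDR* did not exceed 0.187 RPKM, and *PECAM1* was at 7.12 and 7.46 RPKM in EV and 1.14 to 1.37 RPKM with the isoforms. Of the 6 fibroblast markers *COL1A1* was the 1 tested and was called higher with both isoforms, and *CD14* and *PECAM1* were called lower with both. As these are bulk libraries, fewer cells of a type and less RNA per cell cannot be told apart.

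Gene-level differences were tested with limma on log2(RPKM + 0.1) across 12805 genes with Benjamini-Hochberg adjustment, and a gene was called at an adjusted p under 0.05 together with a fold change over 1.5. With TBX3iso1, 5 keratins were called higher and 2 lower of the 17 tested, which is 41.2% of them. Across all genes tested 21.5% were called with TBX3iso1, 7.46% higher and 14.1% lower. Under quantile normalization the split with TBX3iso1 was 4 higher and 3 lower for keratins, and the higher share of the called genes was 49% in place of 34.6% for all genes. With TBX3iso2, 3 keratins were called higher and 3 lower, or 35.3%, whereas 21.2% of all genes were called, 8.94% higher and 12.3% lower. The median log2 fold change of the 17 keratins was 0.11 with TBX3iso1 and 0.12 with TBX3iso2, compared with -0.05 and -0.0021 for all genes tested. *KRT5* and *KRT16* were called higher with both isoforms, and *KRT15* and *KRT86* lower with both. Both comparisons use the same EV libraries, so these 4 shared calls are not independent of each other. The remaining calls were *KRT6A*, *KRT6B* and *KRT83* higher with TBX3iso1, *KRT75* higher with TBX3iso2 and *KRT19* lower with TBX3iso2. For 8 of the 17 keratins neither comparison with EV gave a call.

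**Figure D1:**
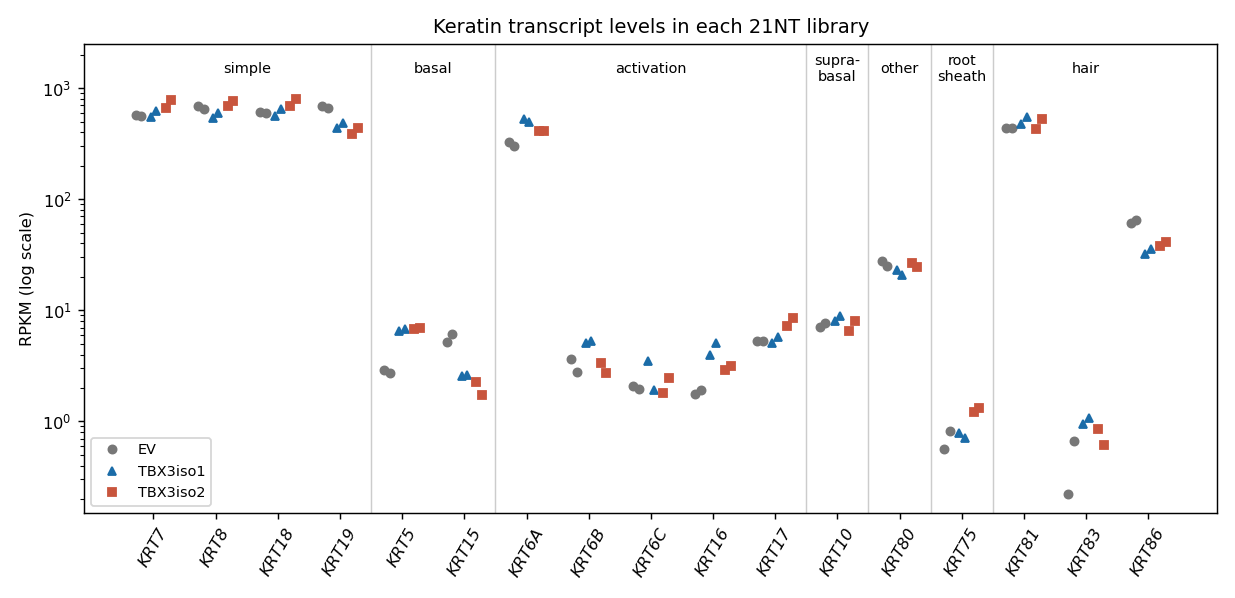
Level of the 17 tested keratins (RPKM, log scale) in each of the 6 libraries, grouped by keratin class, with grey circles for EV, blue triangles for TBX3iso1 and orange squares for TBX3iso2. *KRT7*, *KRT8*, *KRT18*, *KRT19*, *KRT6A* and *KRT81* stand at 301 RPKM or more in every library, and *KRT5* and *KRT15* move in opposite directions between EV and both isoform lines.

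Simple keratins made up most of the keratin RNA, and *KRT19* was the member of this class that fell. *KRT8*, the type II chain that pairs with *KRT18* in simple epithelia, was at 689 and 654 RPKM in EV, 541 and 594 RPKM with TBX3iso1, and 689 and 768 RPKM with TBX3iso2. *KRT18* was at 607 and 602 RPKM in EV, 565 and 655 RPKM with TBX3iso1, and 693 and 802 RPKM with TBX3iso2. *KRT7*, the other type II chain of ductal epithelium, was at 577 and 556 RPKM in EV, 554 and 620 RPKM with TBX3iso1, and 662 and 788 RPKM with TBX3iso2. None of these 3 was called in either comparison. *KRT7* and *KRT18* libraries of EV and TBX3iso1 overlapped, and for both genes the TBX3iso2 libraries lay above those of EV. Their log2 fold changes with TBX3iso2 were 0.35 for *KRT7* (95% interval 0.048 to 0.65) and 0.30 for *KRT18* (-0.00096 to 0.61). With TBX3iso1 the *KRT8* libraries lay below those of EV, at a log2 fold change of -0.24 (-0.52 to 0.036).

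*KRT19*, a type I chain that lacks a long tail domain and marks ductal luminal cells, was at 697 and 662 RPKM in EV, 438 and 481 RPKM with TBX3iso1, and 387 and 441 RPKM with TBX3iso2. All 4 isoform libraries lay below both EV libraries. *KRT19* fell by 0.72 on the log2 scale with TBX3iso2, 1.65-fold lower (standard error 0.116, limma adjusted p = 0.00212). With TBX3iso1 the difference was -0.57 (adjusted p = 0.00627), 1.48-fold lower and just under the fold threshold. Quantile normalization made it a call at -0.82. With 1 library left out the value ranged from -0.63 without TBX3iso1 2 to -0.50 without TBX3iso1 1. It was called in the former of these fits and in no other fit with a library left out. *KRT20*, a simple keratin of gut and urothelium, stayed at 0.0877 RPKM or less.

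**Figure D2:**
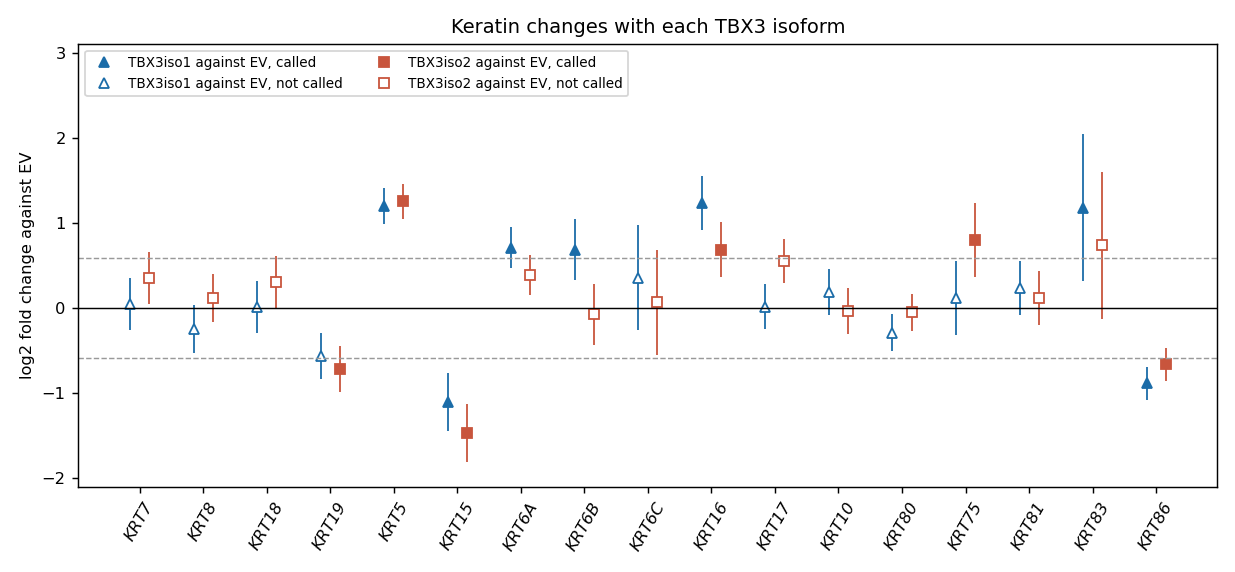
log2 fold change against EV of each tested keratin on the log2(RPKM + 0.1) scale, with 95% intervals from limma; triangles are TBX3iso1, squares TBX3iso2, filled symbols passed both criteria, and the dashed lines mark a 1.5-fold change. *KRT5* and *KRT15* show the rise and the fall of the basal class, from 1.20 and 1.25 for *KRT5* to -1.103 and -1.47 for *KRT15*.

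Basal keratins moved in both directions. *KRT5*, the type II chain of basal and myoepithelial cells, rose with both isoforms, and *KRT15*, a type I chain of basal cells and the hair follicle bulge, fell with both. *KRT5* was at 2.93 and 2.73 RPKM in EV, 6.47 and 6.81 RPKM with TBX3iso1, and 6.75 and 6.99 RPKM with TBX3iso2. Its EV libraries lay well below the isoform libraries, which overlapped with each other. The log2 fold change of *KRT5* was 1.20 with TBX3iso1 (2.30-fold, standard error 0.0906, limma adjusted p = 6.76e-05) and 1.25 with TBX3iso2 (2.38-fold, adjusted p = 5.79e-05). *KRT15* was at 5.22 and 6.15 RPKM in EV, 2.56 and 2.62 RPKM with TBX3iso1, and 2.26 and 1.74 RPKM with TBX3iso2. Every isoform library lay below both EV libraries, and the TBX3iso2 libraries were the lowest. *KRT15* fell by 1.103 on the log2 scale with TBX3iso1 (2.15-fold lower, standard error 0.147, limma adjusted p = 0.000891) and by 1.47 with TBX3iso2 (2.77-fold lower, adjusted p = 0.000233). *KRT14*, the usual partner of *KRT5*, did not exceed 0.0398 RPKM in any library, so *KRT5* was measured in libraries with almost no *KRT14* RNA.

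TBX3 binds T-box elements, whose core is AGGTGT and whose longer form is AGGTGTGA. The promoter of *KRT5* is shown because it held such a motif, and promoters of tested keratins without a match are not printed. In the RefSeq promoter table (GRCh38.p14, a window of 300 bases around the start of each gene), 4 of the 17 tested keratins had an entry, *KRT5*, *KRT8*, *KRT10* and *KRT75*, and *KRT5* was the 1 with a match on either strand. The core was found in 11.4% of all 35116 promoters and the longer form in 0.98%. In *KRT5*, chr12:52520345-52520644 on the minus strand, the longer form runs from 129 to 122 bases upstream of the start and is printed in capitals. The match is a description of this sequence, and no binding data were used.
KRT5 promoter: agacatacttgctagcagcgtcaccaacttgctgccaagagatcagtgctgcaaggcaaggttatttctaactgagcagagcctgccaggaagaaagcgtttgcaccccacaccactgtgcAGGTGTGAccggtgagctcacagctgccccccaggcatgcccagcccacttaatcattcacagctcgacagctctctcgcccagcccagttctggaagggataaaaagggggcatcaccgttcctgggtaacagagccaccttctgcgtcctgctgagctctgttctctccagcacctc

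Other basal and myoepithelial genes were read beside the basal keratins. *TP63*, a regulator of basal epithelium, was at 3.04 and 3.66 RPKM in EV, 0.330 and 0.243 RPKM with TBX3iso1, and 0.332 and 0.267 RPKM with TBX3iso2. It fell by 3.16 on the log2 scale with TBX3iso1 and fell by 3.11 with TBX3iso2 (limma adjusted p = 2.84e-05 and 2.95e-05). Of 6 myoepithelial markers 4 could be tested, and 4 were called lower with TBX3iso1 and 3 with TBX3iso2, where 14.1% and 12.3% of all genes were. The other one, *OXTR*, lay above EV in both TBX3iso2 libraries (0.33, adjusted p = 0.0384), under the fold threshold. The 6 markers' sum ranged from 13.2 to 14.1 RPKM in EV, 3.73 to 4.13 RPKM with TBX3iso1 and 5.74 to 6.16 RPKM with TBX3iso2. *CNN1* was almost absent from every line, at 0.0237 and 0.0150 RPKM in EV and 0 in all 4 isoform libraries. The part of these markers in the *KRT5* and *KRT15* differences was not tested.

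Activation keratins were the class with the most calls for TBX3iso1, 3 higher of 5 tested, against 1 of 5 for TBX3iso2. Of all genes tested, 7.46% were called higher with TBX3iso1 and 8.94% with TBX3iso2. *KRT6A*, by far the most abundant of them, was at 330 and 301 RPKM in EV, 532 and 500 RPKM with TBX3iso1, and 411 and 416 RPKM with TBX3iso2. The 3 lines did not overlap, in the order EV, TBX3iso2, TBX3iso1. *KRT6A* rose by 0.71 on the log2 scale with TBX3iso1 (1.64-fold, standard error 0.102, limma adjusted p = 0.00123), whereas with TBX3iso2 the value was 0.39 (adjusted p = 0.0164), under the fold threshold. Quantile normalization ended the call with TBX3iso1 by taking the value to 0.50.

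*KRT16*, the type I partner of *KRT6A*, was at 1.76 and 1.93 RPKM in EV, 3.97 and 5.03 RPKM with TBX3iso1, and 2.89 and 3.18 RPKM with TBX3iso2. Its lines also kept apart in the order EV, TBX3iso2, TBX3iso1. *KRT16* rose by 1.23 on the log2 scale with TBX3iso1 (2.35-fold, standard error 0.138, limma adjusted p = 4e-04) and by 0.69 with TBX3iso2 (1.61-fold, adjusted p = 0.00547). The TBX3iso2 call was lost without EV 1 (0.63, adjusted p = 0.052) and with a pseudocount of 1 RPKM (0.50).

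*KRT6B* was at 3.64 and 2.79 RPKM in EV, 5.12 and 5.25 RPKM with TBX3iso1, and 3.38 and 2.70 RPKM with TBX3iso2. Only the TBX3iso1 libraries stood apart, and *KRT6B* rose by 0.69 on the log2 scale there (1.61-fold, standard error 0.155, limma adjusted p = 0.00928). This call was lost without EV 2 (0.50, adjusted p = 0.0796) and with a pseudocount of 1 RPKM (0.56). *KRT6C*, at 2.07 and 1.95 RPKM in EV, 3.49 and 1.92 RPKM with TBX3iso1, and 1.79 and 2.48 RPKM with TBX3iso2, overlapped between all lines. Its TBX3iso1 libraries differed by 0.83 on the log2 scale, more than those of any other tested keratin in that line, and without TBX3iso1 2 *KRT6C* was called higher with TBX3iso1 (0.77, adjusted p = 0.023). *KRT17*, a type I chain of activated and basal-like epithelium, was at 5.31 and 5.33 RPKM in EV, 5.08 and 5.70 RPKM with TBX3iso1, and 7.16 and 8.59 RPKM with TBX3iso2. Its TBX3iso2 libraries were above all others, at a log2 fold change of 0.55 (limma adjusted p = 0.00593), 1.47-fold and under the fold threshold. Quantile normalization took this value to 0.62, and leaving out TBX3iso2 1 to 0.68, both past the threshold.

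*KRT6A*, *KRT6B* and *KRT6C* lie next to each other on chromosome 12 and are near-identical in sequence. In the annotation of GRCh37, 38.5%, 46% and 52.7% of the windows of 51 bases, the read length, in their longest transcripts also occur in other genes, and the rule by which the authors divided such reads is not given in the sources used here. The individual values and calls of these genes are therefore uncertain, since they may rest partly on the same reads. Their sum, which depends little on how reads were divided among them, was 335 and 306 RPKM in EV, 541 and 507 RPKM with TBX3iso1, and 416 and 421 RPKM with TBX3iso2. The summed level kept the 3 lines apart in the same order as *KRT6A* alone. For *KRT16* and *KRT17*, 21.1% and 17.5% of such windows also occur in other genes.

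Squamous differentiation genes, which accompany activation and suprabasal keratins in stratified epithelia, were read from a list of 12, of which 11 were in the table and 7 were tested. With TBX3iso1, 5 of the 7 were higher and 1 lower, whereas with TBX3iso2, 0 were higher and 3 lower, against 7.46% of all genes called higher with TBX3iso1 and 12.3% lower with TBX3iso2. Involucrin (*IVL*), a cornified envelope protein, was at 0.297 and 0.336 RPKM in EV, 1.89 and 1.83 RPKM with TBX3iso1, and 0.273 and 0.150 RPKM with TBX3iso2. It passed the filter only through its TBX3iso1 libraries. *SPRR2A* and *SPRR3* also drew their means mostly from TBX3iso1, at 2.28 and 2.08 RPKM against 0.561 and 0.543 RPKM in EV. The count of genes higher with TBX3iso1 therefore leans on this filter. *SPRR1B*, another envelope precursor, was at 2.37 and 2.04 RPKM in EV, 7.85 and 9.93 RPKM with TBX3iso1, and 2.12 and 2.67 RPKM with TBX3iso2. *IVL* and *SPRR1B* rose by 2.24 and 1.96 on the log2 scale with TBX3iso1 (limma adjusted p = 0.000234 and 9.4e-05), while their TBX3iso2 values of -0.45 and 0.11 were not called (adjusted p = 0.139 and 0.614). The list summed to 12.1 and 12.2 RPKM in EV, 21.4 to 22.2 RPKM with TBX3iso1 and 7.12 to 8.66 RPKM with TBX3iso2, and *TGM3* did not exceed 0.0107 RPKM. Its part in the differences of the activation keratins was not tested.

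Suprabasal keratins stayed low. *KRT10*, the type I chain of suprabasal epidermis, was the 1 tested of the 7 in the table, at 7.12 and 7.70 RPKM in EV, 8.06 and 8.86 RPKM with TBX3iso1, and 6.54 and 8.003 RPKM with TBX3iso2. It was not called with TBX3iso1 (0.19, 95% interval -0.080 to 0.46) or TBX3iso2 (-0.03, -0.30 to 0.23). Its epidermal partner *KRT1* was not analysed here. *KRT4*, which pairs with *KRT13* in the mucosa, was at 0.495 and 0.467 RPKM in EV, 0.0571 and 0.117 RPKM with TBX3iso1, and 0.0227 and 0.0676 RPKM with TBX3iso2. Every isoform library of *KRT4* lay below both EV libraries, and in the fit without a filter on low values *KRT4* was called lower with TBX3iso1 (-1.65, limma adjusted p = 0.00967) and TBX3iso2 (-2.02, adjusted p = 0.0057). *KRT13* did not exceed 0.0501 RPKM.

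Hair keratins were represented mainly by *KRT81*, which reached the level of the simple keratins, and *KRT86* fell with both isoforms. *KRT81* was at 436 and 435 RPKM in EV, 475 and 553 RPKM with TBX3iso1, and 426 and 524 RPKM with TBX3iso2. It was not called with TBX3iso1 (0.24, 95% interval -0.080 to 0.55) or TBX3iso2 (0.12, -0.20 to 0.43). *KRT86* was at 60.6 and 65.2 RPKM in EV, 32.4 and 35.7 RPKM with TBX3iso1, and 38.3 and 41.2 RPKM with TBX3iso2. The lines did not overlap, with EV highest and TBX3iso1 lowest. *KRT86* fell by 0.89 on the log2 scale with TBX3iso1 (1.85-fold lower, standard error 0.0838, limma adjusted p = 0.000186) and by 0.66 with TBX3iso2 (1.58-fold lower, adjusted p = 0.000671).

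*KRT81* and *KRT86* are close copies, with 44.2% and 44.4% of their windows of 51 bases found in other genes, and the annotated span of *KRT86* on the plus strand (GRCh37 chromosome 12, 52643084 to 52702947) contains *KRT81* on the minus strand (52679697 to 52685318). Whether reads were counted by strand is not given in the sources used here, so the division of reads between the copies is uncertain, and with it the fall of *KRT86*. The sum of *KRT81*, *KRT83* and *KRT86* was 497 and 501 RPKM in EV, 508 and 590 RPKM with TBX3iso1, and 465 and 566 RPKM with TBX3iso2, above EV with TBX3iso1 and overlapping with EV for TBX3iso2. *KRT83*, another hair keratin, was at 0.221 and 0.661 RPKM in EV, 0.958 and 1.08 RPKM with TBX3iso1, and 0.850 and 0.615 RPKM with TBX3iso2. The TBX3iso1 libraries lay above those of EV, but the EV libraries themselves differed by 1.24 on the log2 scale, the widest replicate difference of any tested keratin. The EV mean of *KRT83*, 0.441 RPKM, lay under the filter, which it passed through the isoform lines (1.02 and 0.732 RPKM). *KRT83* was called higher with TBX3iso1 (1.18, standard error 0.370, limma adjusted p = 0.0345), and the call was lost without EV 1 (0.56, adjusted p = 0.147), without TBX3iso1 1 (adjusted p = 0.0523) or without TBX3iso1 2 (adjusted p = 0.0995), with a pseudocount of 1 RPKM (0.50) and with no filter (adjusted p = 0.118). Without EV 2, *KRT83* was also called with TBX3iso2 (1.36, adjusted p = 0.014), against 0.74 with all libraries.

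*KRT75*, a type II chain of the companion layer of the hair follicle, was at 0.569 and 0.816 RPKM in EV, 0.791 and 0.706 RPKM with TBX3iso1, and 1.21 and 1.32 RPKM with TBX3iso2. The TBX3iso2 libraries were above all others, and *KRT75* rose by 0.80 on the log2 scale there (1.74-fold, standard error 0.187, limma adjusted p = 0.0105). Without EV 1 the value was 0.58 and no longer called (adjusted p = 0.0776), and a pseudocount of 1 RPKM also ended the call (0.42). *KRT80*, an epithelial type II chain, was at 28.1 and 25 RPKM in EV, 22.8 and 20.6 RPKM with TBX3iso1, and 26.8 and 24.4 RPKM with TBX3iso2. The TBX3iso1 libraries of *KRT80* lay below those of EV by a log2 fold change of -0.29 (adjusted p = 0.0397), 1.22-fold and under the fold threshold, and those of TBX3iso2 overlapped with EV.

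Among the 18 keratins below the filter, 13 had no library over 0.1 RPKM and the highest value of these was 0.0951 RPKM. The others were *KRT4*, *KRT23*, *KRT34*, *KRT78* and *KRT85*. *KRT23* was at 0.326 and 0.378 RPKM in EV, 0.0303 and 0.0415 RPKM with TBX3iso1, and 0.0701 and 0.0359 RPKM with TBX3iso2, with all isoform libraries below EV. The hair keratin *KRT34* was at 0.0132 and 0.0167 RPKM in EV, 0.129 and 0.191 RPKM with TBX3iso1, and 0.0852 and 0.0339 RPKM with TBX3iso2, with all isoform libraries above EV. In the fit without a filter *KRT23* was called lower with both isoforms (-1.73 and -1.57, limma adjusted p = 0.00307 and 0.00373) and *KRT34* higher with TBX3iso1 (1.17, adjusted p = 0.0167). Scaled for alignments and set against the smallest value of the same gene, *KRT23* reached 11.5 and 10.56 multiples in EV, *KRT4* 23.4 and 17.5 in EV, and *KRT34* 9.13 and 13.4 with TBX3iso1, whereas on their low side (*KRT23* and *KRT4* with either isoform, *KRT34* in EV) these genes lay between 1 and 5.11 multiples. The table gives no counts from which their counting error could be had. On the log2(RPKM + 0.1) scale the differences of such genes are also understated.

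The summed level of the 35 keratins was 3455 and 3333 RPKM in EV, 3197 and 3498 RPKM with TBX3iso1, and 3367 and 3839 RPKM with TBX3iso2, and the lines overlapped. As a share of all RPKM it was 1.06% and 1.03% in EV, 0.966% and 0.973% with TBX3iso1, and 1.02% and 1.08% with TBX3iso2, so that by this measure the TBX3iso1 libraries lay below the others. *KRT7*, *KRT8*, *KRT18*, *KRT19*, *KRT6A* and *KRT81* supplied between 96.3% and 97.3% of the keratin RPKM. For comparison *VIM*, the intermediate filament gene of mesenchymal cells, was at 18.5 and 18.9 RPKM in EV, 147 and 160 RPKM with TBX3iso1, and 260 and 278 RPKM with TBX3iso2, a log2 fold change of 3.03 and 3.84 (limma adjusted p = 1.58e-06 and 4.13e-07). *VIM* did not overlap between any of the lines, unlike the summed keratin RPKM.

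Within that pool the shares of the classes differed. Simple keratins held 74.4% and 74.3% of keratin RPKM in EV, 65.6% and 67.2% with TBX3iso1, and 72.2% and 72.9% with TBX3iso2. Activation keratins held 9.91% and 9.40% in EV, 17.2% and 14.8% with TBX3iso1, and 12.7% and 11.3% with TBX3iso2. For both shares the 3 lines did not overlap, and TBX3iso1 lay farther from EV than TBX3iso2. In RPKM the simple keratins summed to 2570 and 2475 in EV, 2097 and 2350 with TBX3iso1, and 2431 and 2798 with TBX3iso2. With TBX3iso2 the simple sum thus overlapped with EV. *KRT6A* held most of the activation sum, with a mean of 315.5 of 327.9 RPKM in EV and 516.1 of 533.9 RPKM with TBX3iso1. Hair keratins held 14.4% and 15.03% in EV, 15.9% and 16.9% with TBX3iso1, and 13.8% and 14.7% with TBX3iso2, with only the TBX3iso1 libraries apart from EV. Basal keratins held between 0.228% and 0.282% in every library, since the rise of *KRT5* and the fall of *KRT15* were of like size in RPKM. With 2 libraries per line no test of these shares was made. After quantile normalization, an alternative chosen after seeing the data, the simple share was 74.8% and 74.1% in EV, 66.0% and 66.8% with TBX3iso1, and 71.8% and 72.2% with TBX3iso2.

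**Figure D3:**
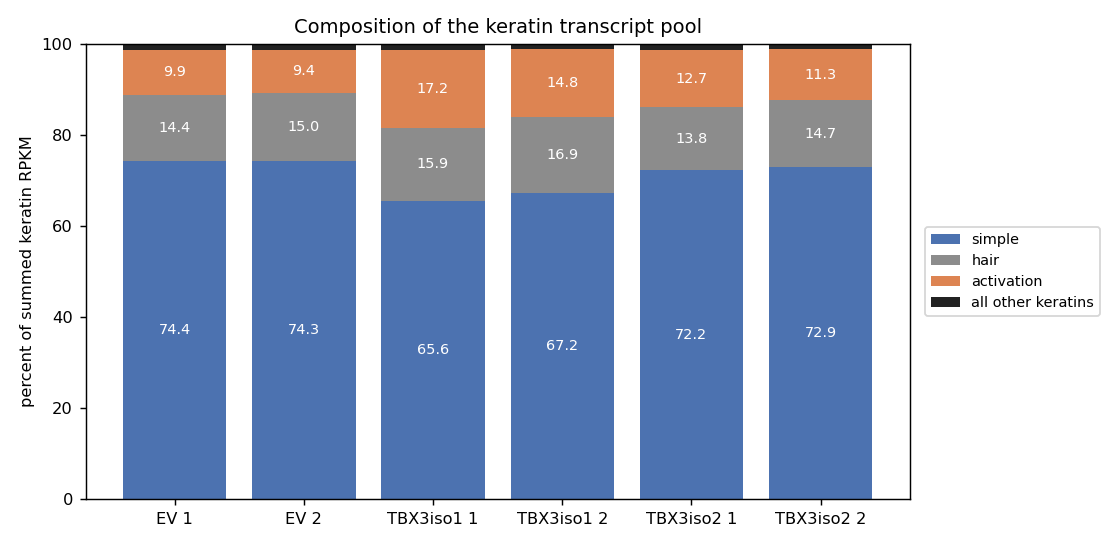
Share of the summed keratin RPKM (percent) held by simple, hair, activation and all other keratins in each of the 6 libraries. The activation share was 9.4 to 9.9 in EV, 14.8 to 17.2 with TBX3iso1 and 11.3 to 12.7 with TBX3iso2, and the simple share was lowest with TBX3iso1.

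Since keratins assemble as pairs of a type I and a type II chain, the balance of the chains was read within each library, on the RPKM scale. Type II over type I was 1.61 and 1.59 in EV, 2.13 and 2.02 with TBX3iso1, and 2.06 and 2.04 with TBX3iso2. The isoform lines overlapped with each other and lay above EV. Both sides contributed, as type II keratins summed to 2131 and 2046 RPKM in EV against 2175 to 2576 RPKM in the isoform libraries, and type I keratins to 1323 and 1286 RPKM in EV against 1023 to 1264 RPKM.

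Single ratios were read in the same way, each of a type II over a type I chain except *KRT81* over *KRT86*. *KRT8* over *KRT18* was 1.14 and 1.09 in EV, 0.957 and 0.908 with TBX3iso1, and 0.994 and 0.958 with TBX3iso2. *KRT7* over *KRT19* was 0.828 and 0.840 in EV, 1.26 and 1.29 with TBX3iso1, and 1.71 and 1.79 with TBX3iso2. *KRT5* over *KRT15* was 0.560 and 0.444 in EV, 2.53 and 2.60 with TBX3iso1, and 2.99 and 4.03 with TBX3iso2. In the *KRT7* and *KRT5* ratios the numerator was the lesser transcript in EV and the greater one with either isoform, and the lines did not overlap. *KRT81* over *KRT86* was 7.20 and 6.67 in EV, 14.7 and 15.5 with TBX3iso1, and 11.1 and 12.7 with TBX3iso2, again without overlap. Both of these are type II chains, so their ratio is no measure of chain balance. It also depends on the uncertain division of reads between the copies. *KRT6A* over *KRT16* was far from balance in every library, at 187 and 156 in EV, 134 and 99.3 with TBX3iso1, and 142 and 131 with TBX3iso2. *KRT8* and *KRT18* overlap at their ends on opposite strands, and 43.7% of the windows of *KRT18* are found in other genes, 19.7% in *KRT8*, so this ratio is uncertain.

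**Figure D4:**
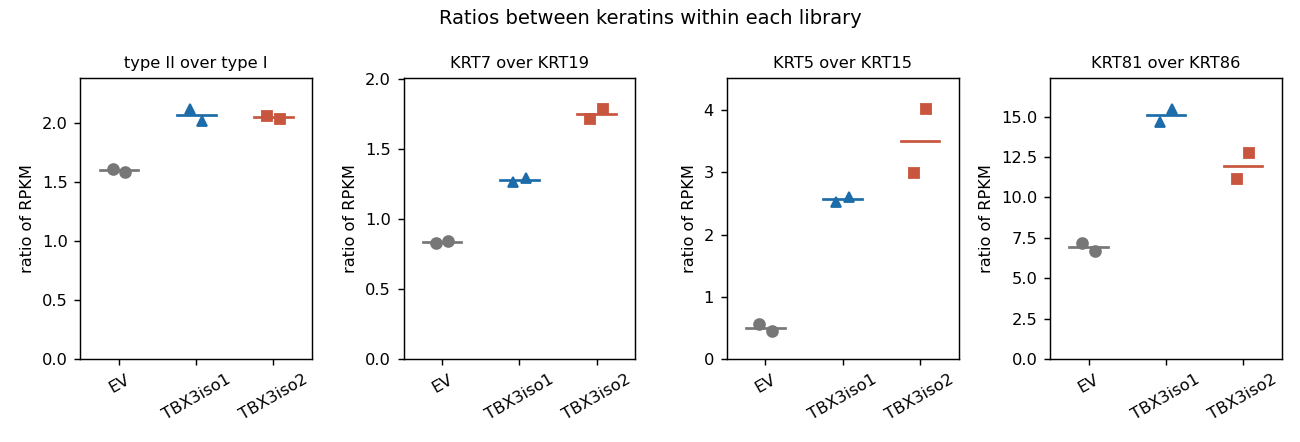
Ratios of RPKM within each library for all type II over all type I keratins, *KRT7* over *KRT19*, *KRT5* over *KRT15* and *KRT81* over *KRT86*; points are libraries, horizontal bars are the means of the 2 libraries of a line, and each axis starts at 0. In every panel both isoform lines lie above EV, as in *KRT7* over *KRT19*, where EV is at 0.828 and 0.840 and TBX3iso2 at 1.71 and 1.79. *KRT81* and *KRT86* are both type II chains, and the division of reads between them is uncertain.

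The isoform lines were also compared directly. *TBX3* RNA was itself higher in the TBX3iso2 libraries (17.5 and 15.5 RPKM) than with TBX3iso1 (13.1 and 11.4 RPKM). Isoform, *TBX3* level and pool of clones therefore cannot be told apart here. Between TBX3iso2 and TBX3iso1, 1 keratin was called higher and 1 lower of the 17, or 11.8%, while 6.29% of all genes were called, 3.47% higher and 2.82% lower. The split was 0 higher and 2 lower under median-ratio scaling and 0 and 1 under quantile normalization, and the higher share of all called genes was 43.4% and 44.7% in place of 55.2%. *KRT6B* was lower with TBX3iso2 (-0.76, 1.69-fold lower, standard error 0.155, limma adjusted p = 0.0178) and *KRT75* higher (0.69, 1.61-fold, standard error 0.187, adjusted p = 0.0475). Neither call withstood the loss of a library: *KRT6B* was lost without TBX3iso1 1 (adjusted p = 0.0528) or TBX3iso1 2 (adjusted p = 0.0582), and *KRT75* lost its call in 12 of 14 alternative fits. *KRT16* (-0.55, adjusted p = 0.0367) and *KRT17* (0.53, adjusted p = 0.0202) passed the adjusted p but not the fold threshold. *KRT16* passed both without TBX3iso1 1 (-0.72), without TBX3iso2 2 (-0.61) and under median-ratio scaling (-0.60), and *KRT17* without TBX3iso1 2 (0.62) or TBX3iso2 1 (0.66). In all other alternative fits these genes stayed uncalled. With 1 library left out the smallest differences were -0.38 for *KRT16* and 0.40 for *KRT17*. *KRT5*, in contrast, differed by 0.05 between the isoforms (95% interval -0.16 to 0.26). *KRT6A* lay at -0.32 (-0.56 to -0.084, adjusted p = 0.0761) and *KRT19* at -0.15 (-0.42 to 0.12). In the squamous differentiation list 5 of 7 genes were lower with TBX3iso2 than with TBX3iso1 and 0 were higher, with *IVL* at -2.68 and *SPRR1B* at -1.85 (limma adjusted p = 0.000536 and 0.000612). *IVL* was among the tested genes only through its TBX3iso1 libraries.

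Separation of the libraries was common across the whole table. The libraries of TBX3iso1 and EV did not overlap for 12 of the 17 tested keratins and for 78.4% of all genes tested. For TBX3iso2 and EV the keratins were 10 of 17 and all genes 74.7%, and for the isoforms against each other 13 of 17 and 53.5%.

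Proteins that anchor or bundle keratin filaments were read from a list of 20 genes (desmosomal plaque proteins, plakins, keratin-binding proteins), of which 18 were tested. With TBX3iso1, 0 were called higher and 3 lower, with TBX3iso2, 1 higher and 2 lower, and 0 were called between the isoforms. These counts are near the background, in which 14.1% of all genes were called lower with TBX3iso1 and 12.3% with TBX3iso2. Their median log2 fold changes of -0.07 and 0.0023 lay close to the -0.05 and -0.0021 of all genes. *PPL*, a plakin that links keratin to the cell border, was at 52.0 and 49.3 RPKM in EV, 18.2 and 14.9 RPKM with TBX3iso1, and 18.7 and 15.1 RPKM with TBX3iso2, 3.06-fold and 3.00-fold lower (limma adjusted p = 8.13e-05 and 8.82e-05). The desmosomal plakin *DSP* was 1.59-fold lower with TBX3iso2 (adjusted p = 0.0239), and *SFN*, a 14-3-3 protein that binds keratins, was 1.65-fold higher with TBX3iso2 (adjusted p = 0.00219). *EPPK1*, the plakin epiplakin, and *FBF1* were 1.68-fold and 1.56-fold lower with TBX3iso1 (adjusted p = 0.0207 and 0.00181).

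By their position, 22 of the keratins lay between 52562780 and 53346690 on chromosome 12 of GRCh37 and 13 between 38974369 and 39781094 on chromosome 17. The chromosome 12 cluster holds the type II genes and *KRT18*, and the chromosome 17 cluster the other type I genes. Within each cluster calls were made in both directions. *KRT15* (39669997 to 39678781) and *KRT19* (39679869 to 39684560), which lie side by side on chromosome 17, were both called lower with TBX3iso2. Farther along, *KRT16* and *KRT17* (39766030 to 39772151 and 39775694 to 39781094) both lay above EV with TBX3iso2, and *KRT16* was called. On chromosome 12, *KRT5* and *KRT6A*, also close to each other (52908359 to 52914314 and 52880960 to 52887041), were both called higher with TBX3iso1, and *KRT86*, farther away, was called lower. By type, 11 type II and 6 type I keratins were tested, of which 4 and 1 were called higher and 1 and 1 lower with TBX3iso1, and 2 and 1 higher and 1 and 2 lower with TBX3iso2. For all genes the shares were 7.46% higher and 14.1% lower with TBX3iso1, and 8.94% and 12.3% with TBX3iso2.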

How the data were processed

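mRNA of the 3 stable 21NT lines was sequenced in 2 libraries each, 6 in all. The authors prepared stranded libraries, sequenced them as read pairs of 51 bases on a HiSeq instrument and mapped these with TopHat (hg19, up to 10 alignments per read). The authors deposited RPKM values, which they had computed in Partek Genomics Suite. Software versions, the gene annotation and the rule for reads with several alignments are not given in the sources used here. No gene counts were used, so counting error could not be had and precision rests on the spread between libraries (43176600 to 54512400 alignments each). Replicate log2 differences had SDs of 0.182 (EV), 0.242 (TBX3iso1) and 0.273 (TBX3iso2).

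Lines were assigned from the sample labels. Values were taken as log2(RPKM + 0.1), and all genes averaging 0.5 RPKM or more (12805) were fitted with limma 3.58.1 in R 4.3.3, with 1 mean per line, a trend in the moderation and Benjamini-Hochberg adjustment over all of them, in 3 comparisons. Calls required both adjusted p under 0.05 and more than 1.5-fold change. The code was tested on simulated data. Every keratin that passed the filter is named, the others in groups. Keratin classes, marker lists and partners were written by hand, and the members and lists were chosen with earlier results of these data known. Class shares and ratios were taken per library with no test. Positions and shared windows come from GENCODE on GRCh37, and the promoter from RefSeq on GRCh38.p14. The settings varied were the pseudocount (1 and 0.01 RPKM), the filter (none and 2 RPKM), median-ratio scaling, quantile normalization, a fit of only the lines compared, a replicate block, no trend, and leaving out each library.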

Additional observations from a re-analysis of the deposited data

How the results depend on the processing

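Calls of *KRT5*, *KRT15* and *KRT86* with both isoforms, *KRT16* with TBX3iso1 and *KRT19* with TBX3iso2 held in every alternative run. None of these runs changed how reads were divided between genes, so they do not bear on that doubt about *KRT86*. The causes of the changes given here were not tested. A pseudocount of 1 RPKM gave 3 keratins higher with TBX3iso1 (median 0.050), 1 with TBX3iso2 and 0 between the isoforms, and took the genes called from 2757 to 1812 with TBX3iso1 and from 805 to 419 between the isoforms. Without a filter 4 were lower with TBX3iso1, 5 with TBX3iso2 and 0 higher or lower between the isoforms. A filter at 2 RPKM took the TBX3iso1 median to 0.049 and the genes called between the isoforms to 504. This filter, a pseudocount of 0.01 RPKM, median-ratio scaling (2 lower), quantile normalization and a fit of only the lines compared left 0 higher between the isoforms.

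With 1 library left out, the keratins higher were 4 to 5 with TBX3iso1, 1 to 4 with TBX3iso2 (1 without EV 1) and 0 to 1 between the isoforms, and those lower 2 to 3, 3 to 3 and 0 to 2. Their medians were 0.075 to 0.23 (without EV 2), 0.082 to 0.30 (without TBX3iso2 1) and -0.19 to 0.032 (0.012 without TBX3iso1 1, 0.032 without TBX3iso2 1). A group left with 1 library was taken to vary like the others.

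Uncalled differences changed sign under quantile normalization for *KRT18* (-0.15) and *KRT7* (-0.12) with TBX3iso1 and for *KRT10* (0.024), *KRT6B* (0.072), *KRT8* (-0.078) and *KRT81* (-0.018) with TBX3iso2, and for *KRT5* between the isoforms under median-ratio scaling (-0.0057). With 1 library left out they ranged with TBX3iso1 from -0.11 to 0.34 (*KRT75*), -0.057 to 0.77 (*KRT6C*), -0.065 to 0.098 (*KRT17*), -0.098 to 0.12 (*KRT18*) and -0.033 to 0.13 (*KRT7*), with TBX3iso2 from -0.26 to 0.11 (*KRT6B*), -0.13 to 0.032 (*KRT80*), -0.18 to 0.11 (*KRT10*), -0.16 to 0.30 (*KRT6C*) and -0.032 to 0.27 (*KRT81*), and between the isoforms from -0.70 to 0.13 (*KRT6C*) and -0.27 to 0.032 (*KRT81*).

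The labels do not say that a replicate number marks a shared culture. Deviations of same-numbered libraries correlated at 0.22, 0.114 and 0.499 across 12805 genes, which are not independent. The fit with the replicate number as a block gave 5 keratins higher and 2 lower with TBX3iso1, 3 and 3 with TBX3iso2 and 1 and 1 between the isoforms, and changed no keratin's call. Without gene counts, the error that depth gives to keratins under 1 RPKM is unknown.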

Other observations

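Keratin pseudogenes lie outside the rule used here, and 1 of them had a mean above the filter. *KRT8P41*, a pseudogene of *KRT8*, was at 2.43 and 2.32 RPKM in EV, 2.16 and 1.92 RPKM with TBX3iso1, and 2.87 and 3.28 RPKM with TBX3iso2. Its 3 lines did not overlap and stood in the order TBX3iso1, EV, TBX3iso2, while *KRT8* itself was lowest with TBX3iso1 and overlapped between EV and TBX3iso2. The other 7 pseudogene rows did not exceed 0.634 RPKM.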
